A study of Mus musculus with 6 samples.

Results

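Glycolysis and hypoxia response genes are 50 mouse genes chosen by name, and all 50 were found by their symbol among the 22105 rows of the deposited count table that carry a gene identifier. They comprise 17 glycolytic enzymes, 4 glucose and lactate transporters, 4 regulators of glycolytic flux, 7 hypoxia-inducible factor (HIF) genes and oxygen sensors, 15 other HIF targets and 3 glycogen enzymes. Transcripts were measured by mRNA-seq in 4T1, a mouse mammary carcinoma cell line. One group of 3 libraries came from cells given DMSO, the vehicle, and the other group of 3 from cells given 10 µM P3FI-90, an inhibitor of the histone H3 lysine 9 demethylase KDM3B, and both treatments lasted 24 h. No genotype was altered in either group, and the labels name no hypoxic condition. The model is a single cell line, the labels do not say whether the libraries of a group came from separate cultures, and p-values therefore measure only the spread between these libraries.

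Glycolysis splits glucose into pyruvate in the cytosol, and lactate dehydrogenase then turns pyruvate into lactate, which tumor cells often export at high rates even when oxygen is present. HIF is a pair of proteins, an oxygen-labile alpha subunit and a stable beta subunit, that binds DNA at the hypoxia response element. When oxygen is plentiful, prolyl hydroxylases of the EGLN family mark the alpha subunit, the VHL ubiquitin ligase recognises the mark, and the subunit is degraded. When oxygen is scarce, HIF accumulates and switches on most glycolytic enzymes together with genes of angiogenesis, pH control, collagen modification and mitochondrial turnover, which is why enzymes and other targets are commonly read as a single program. The hydroxylases and the KDM3 demethylases belong to one broad class of oxygenases that need iron and 2-oxoglutarate.

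Counts on gene rows summed to between 31327094 and 37395732 per library. Of the 22105 rows, 12288 passed the filter on low counts and were tested with edgeR's quasi-likelihood test, in which a gene was called where its adjusted p was under 0.05. Calls were very common, since 79.3% of the tested genes were called, 39.9% as higher and 39.4% as lower after P3FI-90. Scaling by total counts in place of TMM raised the median log2 fold change of all tested genes by 0.21 and made 62.9% of the calls higher, against 50.3% with TMM. Epithelial markers (*Krt8*, *Krt18*, *Krt7*, *Krt19*, *Epcam*, *Cdh1*) were at 4092 or more normalized counts in every library, whereas *Ptprc*, *Cd3e*, *Itgam*, *Adgre1*, *Pecam1*, *Cdh5*, *Dcn* and *Lum* were at 0 to 26.4. All 6 epithelial markers were called lower after P3FI-90, by 1.24-fold for *Cdh1* to 5.04-fold for *Krt7*, and their part in the fall of the enzymes was not tested. *Pdgfra*, a marker of fibroblasts, was present in both groups and fell from 1355 ± 17.6 to 958 ± 56.5 normalized counts (mean ± SD, n = 3). In such a bulk sample, fewer cells that express a gene and less RNA per cell cannot be told apart. Transcripts of *Kdm3b*, the inhibitor's target, had log2 fold change 0.13 ± 0.04 (SE), and those of its paralog *Kdm3a*, itself a HIF target, increased from 2703 ± 65.6 to 6961 ± 271 normalized counts (mean ± SD, n = 3).

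The core of the hypoxia response element is spelled ACGTG or GCGTG, and the members' promoters were searched for both. RefSeq promoter windows of GRCm38.p6, from 250 bases before to 50 bases after each annotated start, were matched for 45 of the 50 members. The windows of *Bnip3l*, *Slc2a3*, *Plod2*, *Epas1* and *Ndrg1* were not used here. ACGTG was found on either strand in 29 of the 45 members (64.4%), against 21.8% of the 27025 genes with a window, and GCGTG in 27 members (60%) against 35.2%. CACGTG, the E-box, holds ACGTG on both strands and was found in 7 members (15.6%) against 8.09% of genes. Counted by window, ACGTG was in 53.3% of the members' windows against 19.6% of all windows. The genes compared were not matched to the members for expression, and only 12288 genes were tested here. The stretches below were chosen to set enzymes and targets that moved in opposite directions side by side, with ACGTG and its reverse complement CACGT in capitals, 5′ to 3′ on the gene's own strand. The first 4 belong to enzymes whose transcripts fell.
Pgk1, chrX:106186930-106186989, plus strand: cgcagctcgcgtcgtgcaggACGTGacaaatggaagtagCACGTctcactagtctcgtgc
Ldha, chr7:46845724-46845783, plus strand: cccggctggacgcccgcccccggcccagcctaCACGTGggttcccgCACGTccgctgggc
Hk2, chr6:82774475-82774534, minus strand: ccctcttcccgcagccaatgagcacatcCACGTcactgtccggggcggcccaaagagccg
Pkm, chr9:59657122-59657181, plus strand: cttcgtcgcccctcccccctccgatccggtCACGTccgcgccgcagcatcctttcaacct
The next 4 belong to a flux regulator and 3 other HIF targets whose transcripts rose.
Pfkfb3, chr2:11502111-11502170, minus strand: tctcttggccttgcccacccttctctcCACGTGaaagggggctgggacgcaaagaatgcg
P4ha1, chr10:59323236-59323295, plus strand: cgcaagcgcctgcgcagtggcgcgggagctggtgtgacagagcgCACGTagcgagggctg
P4ha2, chr11:54100819-54100878, plus strand: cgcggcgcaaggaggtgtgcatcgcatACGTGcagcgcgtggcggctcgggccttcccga
Bnip3, chr7:138909582-138909641, minus strand: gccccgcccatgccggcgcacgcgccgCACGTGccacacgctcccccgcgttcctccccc
These 2 belong to other HIF targets whose transcripts fell.
Ankrd37, chr8:45999851-45999910, minus strand: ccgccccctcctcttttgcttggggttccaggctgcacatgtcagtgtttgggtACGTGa
Ddit4, chr10:59951926-59951985, minus strand: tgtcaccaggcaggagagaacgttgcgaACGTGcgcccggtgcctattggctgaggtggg
A further 2 belong to members that were not called.
Slc2a1, chr4:119108680-119108739, plus strand: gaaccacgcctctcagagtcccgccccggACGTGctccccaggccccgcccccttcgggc
Car9, chr4:43506966-43507025, plus strand: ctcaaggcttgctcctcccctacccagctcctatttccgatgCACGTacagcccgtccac
The last belongs to *Eno2*, the enzyme that rose, whose window held neither motif.
Eno2, chr6:124769674-124769733, minus strand: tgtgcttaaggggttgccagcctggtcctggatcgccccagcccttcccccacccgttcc

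A match in such a window is a description of its letters and not a binding site. ACGTG was found in 8 of the 14 members with a window that rose (57.1%), in 15 of the 24 that fell (62.5%) and in 6 of the 7 that were not called. By role, 10 of 17 glycolytic enzymes and 9 of 12 other HIF targets held it. The enzymes had more windows per gene. Counted by window, it was in 12 of 28 for enzymes (42.9%) and 9 of 13 for other HIF targets (69.2%), against 19.6% of all windows. The printed stretches show the same 5 letters beside *Pgk1* and *Pkm*, which fell, and beside *P4ha1* and *P4ha2*, which rose. Where a gene had several annotated starts, the window with the most matches in the printed range was shown. The other window of *Pkm* and that of *Ldha* held no ACGTG.

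After P3FI-90, most glycolytic enzymes were lower, 13 of the 15 that fell by less than 2-fold, whereas 9 of the 15 other HIF targets were higher, among them *Vegfa*, *Adm*, *P4ha1*, *Higd1a* and *P4ha2* by more than 2-fold. Among the 50 members, 48 were tested, of which 16 were called higher, 24 lower and 8 not called (22 higher and 20 lower with total counts). The share called, 83.3%, was close to the 79.3% of all genes tested. The groups of libraries did not overlap for 16 members that were higher and 23 that were lower, and among all genes tested 41.0% and 40.2% did so. A log2 fold change over 1 was reached by 7 members called higher, against 12.7% of all genes, and 5 members called lower were under −1, against 10.6%. The median log2 fold change of the tested members was −0.12, beside 0.01 for all genes tested. *Slc2a3* and *Epas1* had too few counts to be tested.

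**Figure D1:**
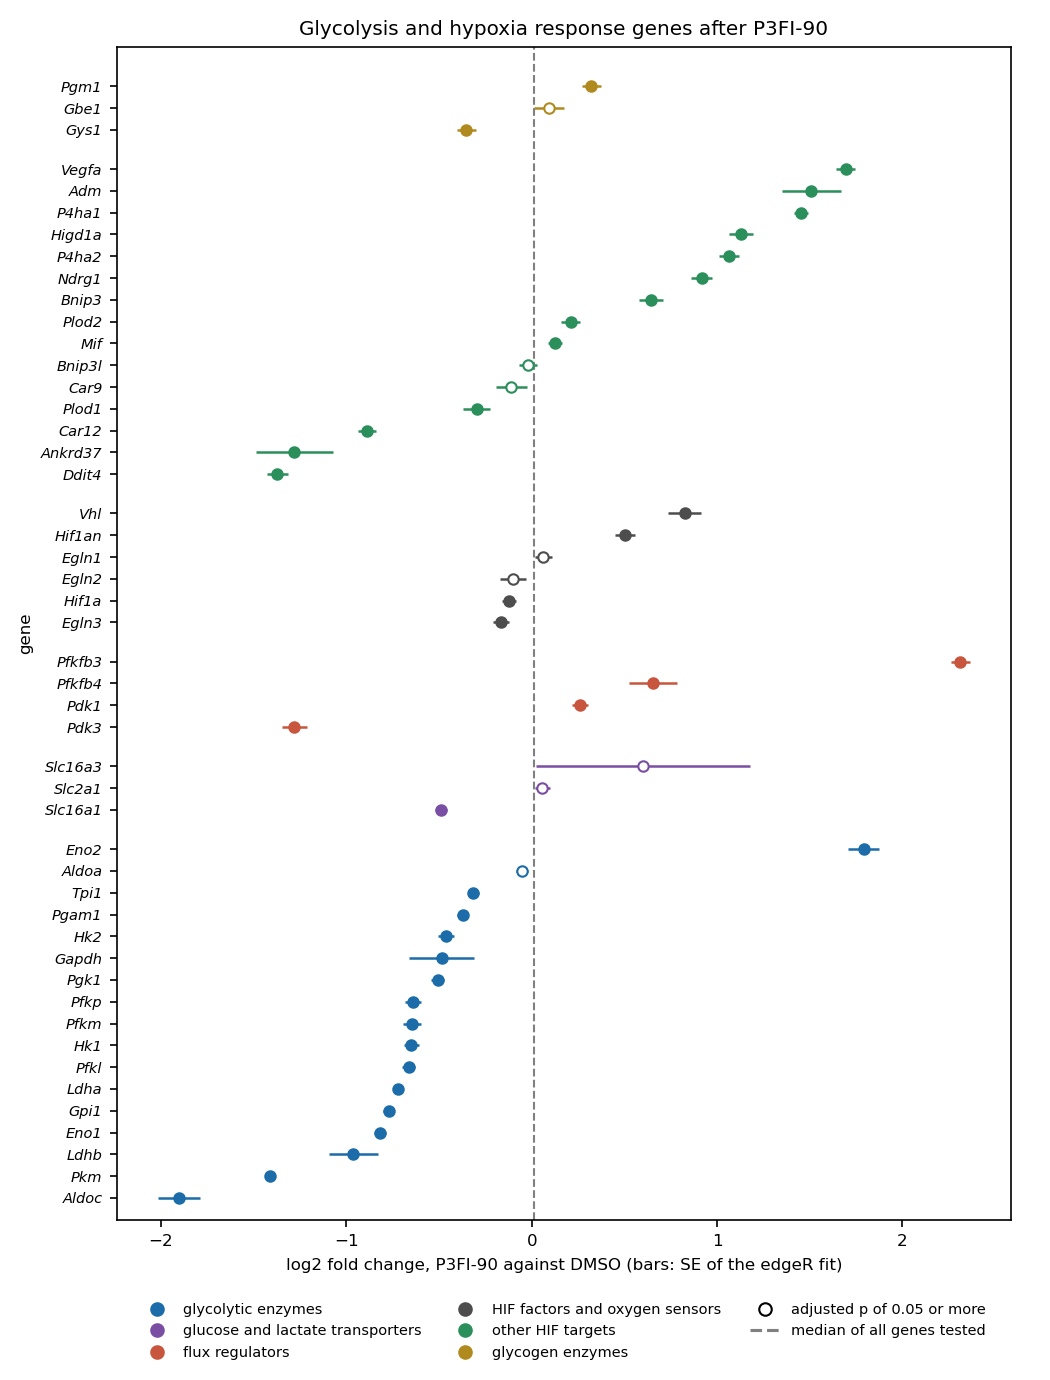
Log2 fold change of the 48 tested members after P3FI-90 against DMSO (x axis, bars are the SE of the edgeR fit), with genes on the y axis grouped and coloured by role and sorted within a role. Filled points had an adjusted p under 0.05, and all but *Aldoa* and *Eno2* of the 17 glycolytic enzymes are filled points left of the dashed line, the median of all genes tested at 0.01, while most other HIF targets lie to its right.

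Nearly every glycolytic enzyme was lower in treated cells. Of the 17, 15 were called lower, beside 39.4% of all genes, 1 higher, beside 39.9%, and 1 not called, and the median log2 fold change was −0.65, beside 0.01 for all genes tested. The exceptions were *Eno2*, which rose, and *Aldoa*, which was not called. The enzymes' joint share of a library's counts went from 1.46% ± 0.0126 to 1.02% ± 0.00937 (mean ± SD, n = 3), with no overlap between the groups (exact two-sided permutation p = 0.1, the smallest that 3 against 3 libraries can give).

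At the entry of the pathway, both expressed hexokinases fell, the enzymes that trap glucose as glucose 6-phosphate. The inducible isoform *Hk2* had 3434, 3455 and 3280 normalized counts in the DMSO libraries and 2437, 2435 and 2511 in the P3FI-90 libraries. All 3 treated libraries lay below all 3 vehicle libraries, with a log2 fold change of −0.46 ± 0.04 (SE, edgeR adjusted p = 2.75e-07). *Hk1*, the constitutive isoform, fell by 0.65 ± 0.04 on the log2 scale. *Gpi1*, which isomerises glucose 6-phosphate to fructose 6-phosphate, fell by 0.77 ± 0.03. The 3 phosphofructokinase genes, which encode the committed step, had nearly equal log2 fold changes of −0.66 for *Pfkl*, −0.65 for *Pfkm* and −0.64 for *Pfkp*.

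The aldolases, which cleave fructose 1,6-bisphosphate, differed from each other. *Aldoa*, the main form here, had 50116, 48663 and 48087 normalized counts in DMSO and 46899, 49176 and 45437 in P3FI-90. Its libraries overlapped, and its log2 fold change of −0.05 ± 0.03 was not called (edgeR adjusted p = 0.128). *Aldoc*, the brain-type isoform, went from 728, 801 and 626 to 184, 188 and 203 normalized counts. This was the deepest fall among the 48 members, −1.90 ± 0.11 on the log2 scale (edgeR adjusted p = 1.58e-09).

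Lower glycolysis, from triose phosphate to pyruvate, held several of the most abundant transcripts. Its genes were called lower except *Eno2*, although the groups overlapped for *Gapdh*, which is described below. *Tpi1*, which interconverts the triose phosphates, fell by 0.31 ± 0.03 on the log2 scale. *Pgk1*, the first ATP-yielding step, fell by 0.51 ± 0.04, and *Pgam1*, the phosphoglycerate mutase, by 0.37 ± 0.03. *Eno1*, the ubiquitous enolase, fell by 0.82 ± 0.03. *Pkm*, the pyruvate kinase that ends the pathway, had 161953, 161008 and 160121 normalized counts in DMSO and 61229, 60735 and 59393 in P3FI-90. This 2.66-fold fall (log2 −1.41 ± 0.02, edgeR adjusted p = 2.66e-15) was the deepest among the abundant enzymes, and the libraries of a group differed by little.

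*Eno2*, the neuronal enolase and a known HIF target, was the exception. Its normalized counts went from 661, 820 and 612 in DMSO to 2481, 2335 and 2403 in P3FI-90. Every treated library was above every vehicle library, and the rise was 3.46-fold (log2 1.79 ± 0.08, edgeR adjusted p = 1.14e-10). Even so, *Eno2* stayed minor beside *Eno1* per length of exon, at 511 ± 15.5 against 8201 ± 373 normalized counts per kilobase in treated cells.

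The lactate dehydrogenases both fell. *Ldha*, which favours pyruvate reduction to lactate, had 78121, 76364 and 74899 normalized counts in DMSO and 46471, 45889 and 46762 in P3FI-90. The groups were well apart, with a log2 fold change of −0.72 ± 0.02 (edgeR adjusted p = 4.42e-12). *Ldhb*, the heart-type subunit, was scarce and went from 308, 329 and 301 to 169, 157 and 154 normalized counts. It too fell without overlap, by 0.96 ± 0.13 on the log2 scale.

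*Gapdh*, the enzyme that oxidises glyceraldehyde 3-phosphate and a common reference gene, was the least certain enzyme. Its normalized counts were 1363, 2106 and 1268 in DMSO and 1444, 993 and 934 in P3FI-90. The groups overlapped, since the first treated library exceeded 2 of the vehicle libraries. Its log2 fold change of −0.49 ± 0.18 passed the test (edgeR adjusted p = 0.0212), but the call was lost with total counts, with DESeq2 and without any one of DMSO replicate 2, P3FI-90 replicate 2 or P3FI-90 replicate 3, where edgeR's or DESeq2's adjusted p ranged from 0.0754 to 0.170. *Gapdh* was also far lower than its neighbours in the pathway, at 382 ± 111 normalized counts per kilobase of exon in DMSO against 27807 ± 1210 for *Pgk1*.

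**Figure D2:**
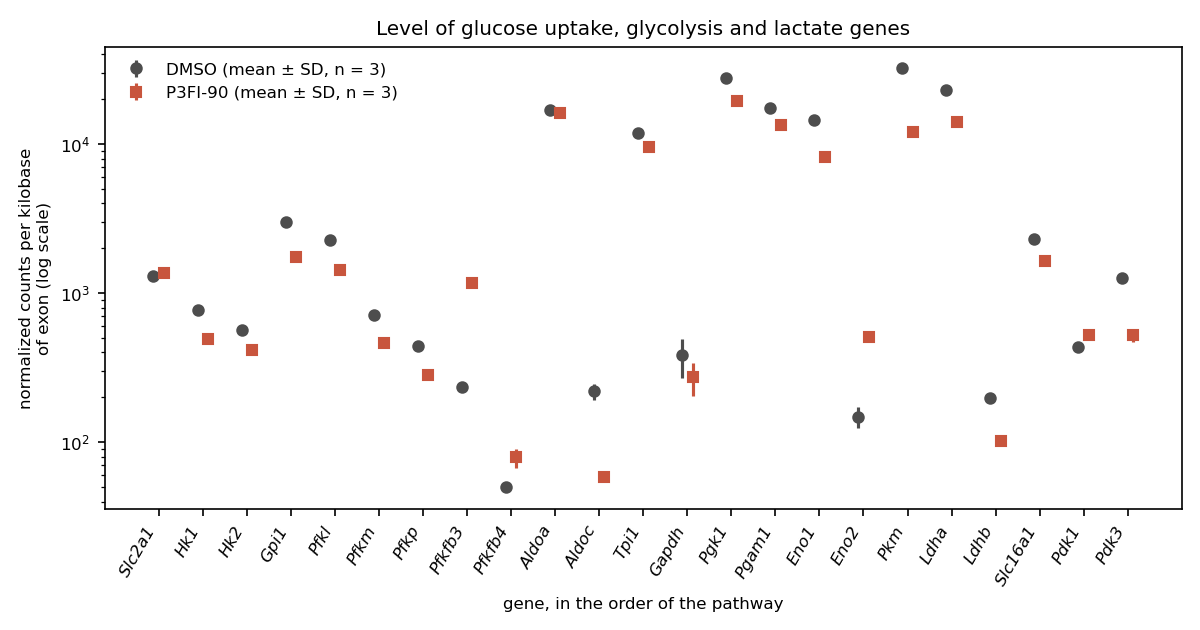
Level of the genes of glucose uptake, glycolysis and lactate handling in DMSO (grey circles) and P3FI-90 (red squares), as normalized counts per kilobase of exon on a log axis (mean ± SD, n = 3), with genes on the x axis in pathway order. Most red squares lie below the grey circles, *Pfkfb3* and *Eno2* are the widest gaps upward, and *Gapdh* lies well under the genes on either side of it.

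Many glycolytic genes have processed pseudogenes, and reads that fit several copies may be split or dropped. In GENCODE M21 transcripts, the share of 50-base windows that also occur in another gene was 53.9% for *Pgk1*, 36.2% for *Pgam1*, 26.0% for *Eno1*, 25.8% for *Pkm*, 24.7% for *Gapdh* and 21.0% for *Ldhb*. The *Gapdh* windows occurred in 218 other genes, the most of any member. Nearly all of the shared *Eno1* windows, 25.3% of its windows, occurred in *Eno1b*, a copy that has its own row and fell by 0.79 ± 0.03 on the log2 scale from 33820 ± 942 normalized counts. Without the members at 20% or more, 9 of 11 enzymes were lower and 1 higher, with a median of −0.65. The part of the shared windows in the *Gapdh* counts was not tested.

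Ordered by level per length in DMSO, the 17 enzymes fell into an abundant and a scarce set. The 7 genes at 10000 or more normalized counts per kilobase, *Pkm*, *Pgk1*, *Ldha*, *Pgam1*, *Aldoa*, *Eno1* and *Tpi1*, act from fructose 1,6-bisphosphate onward, and *Pkm* led with 32199 ± 183. After P3FI-90, *Pkm* stood at 12088 ± 190 per kilobase and was below *Pgk1* at 19572 ± 797, *Aldoa* at 16204 ± 647, *Ldha* at 14010 ± 134 and *Pgam1* at 13485 ± 476. *Pkm* thus moved from the first place in this order to the fifth. The order between genes depends on the exon lengths used and on how shared reads were counted. Windows found in other genes were 53.9% for *Pgk1* and 25.8% for *Pkm*, and the same limit holds for *Gapdh* in the scarce set. The hexokinases and phosphofructokinases, which carry the regulated steps, were between 443 and 2281 per kilobase in DMSO.

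Among the transporters, 1 of 3 tested genes was called, beside 79.3% of all genes tested. *Slc2a1*, which encodes the glucose transporter GLUT1, had 4389, 4775 and 4574 normalized counts in DMSO and 4890, 4592 and 4797 in P3FI-90. These libraries overlapped, and the log2 fold change of 0.06 ± 0.04 was not called with TMM (edgeR adjusted p = 0.220), although total counts gave 0.27 and a call. *Slc16a1*, the lactate and pyruvate transporter MCT1, went from 10302, 10115 and 10415 to 7215, 7262 and 7480 normalized counts. It fell without overlap, by 0.49 ± 0.03 on the log2 scale (edgeR adjusted p = 5.07e-09). *Slc16a3*, the lactate exporter MCT4 that HIF induces in many cells, was close to absent, with 11, 3 and 8 counts in DMSO and 11, 15 and 12 in P3FI-90, and was not called (log2 fold change 0.60 ± 0.58). *Slc2a3*, the glucose transporter GLUT3, had 6, 0 and 0 counts in DMSO and 0, 0 and 3 in P3FI-90, too few for a fold change.

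Regulators of flux gave the largest rise of all members. *Pfkfb3* makes fructose 2,6-bisphosphate, the strongest activator of phosphofructokinase, and its normalized counts went from 1656, 1937 and 1760 to 8698, 8666 and 9185. Treated libraries stood far above the vehicle libraries, a 4.97-fold rise (log2 2.31 ± 0.05, edgeR adjusted p = 8.08e-14) that exceeded 96.5% of all tested genes' log2 fold changes. *Pfkfb4*, a related bifunctional enzyme, went from 240, 247 and 248 to 385, 442 and 328 normalized counts, a log2 rise of 0.65 ± 0.13. *Pfkfb3* thus rose while the phosphofructokinase genes that its product activates fell.

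Pyruvate dehydrogenase kinases, which switch off the entry of pyruvate into the mitochondrial cycle, went opposite ways. *Pdk1*, the classical HIF target of the family, had 3316, 3571 and 3326 normalized counts in DMSO and 4011, 4123 and 4081 in P3FI-90. It rose without overlap, but by only 0.26 ± 0.04 on the log2 scale (edgeR adjusted p = 6.06e-05). *Pdk3* went from 3299, 3305 and 3144 to 1497, 1219 and 1298 normalized counts, a 2.43-fold fall (log2 −1.28 ± 0.07, edgeR adjusted p = 4.06e-10).

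Of the listed HIF factors, *Hif1a* was tested and *Epas1* was too scarce. *Hif1a* had 11488, 12443 and 11411 normalized counts in DMSO and 10773, 10578 and 11094 in P3FI-90. The treated libraries were all slightly lower, with a log2 fold change of −0.12 ± 0.04 (edgeR adjusted p = 0.00944). With total counts the value turned to 0.09 and the gene was called higher (edgeR adjusted p = 0.0444). *Epas1*, which encodes HIF-2α, was all but absent, with 2, 0 and 4 counts in DMSO and 6, 7 and 2 in P3FI-90. The stability of the HIF-1α protein, on which its activity chiefly depends, is not measured by these counts.

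Among the oxygen sensors, 2 prolyl hydroxylases were not called and the third was slightly lower under TMM, while *Vhl* and *Hif1an* rose. *Egln1*, the main hydroxylase in normoxia, had 7416, 7074 and 6797 normalized counts in DMSO and 7066, 7801 and 7375 in P3FI-90, and *Egln2* had 1130, 1062 and 1100 against 1014, 949 and 1106. Both pairs of groups overlapped and neither gene was called, with log2 fold changes of 0.06 ± 0.04 and −0.10 ± 0.07. *Egln3*, the hydroxylase most strongly induced by HIF, went from 4759, 4875 and 4512 to 4068, 4400 and 4129 normalized counts, a log2 fold change of −0.17 ± 0.04 (edgeR adjusted p = 0.00253) that turned to 0.05 with total counts.

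*Vhl*, the substrate receptor that targets HIF for degradation, had 843, 1031 and 830 normalized counts in DMSO and 1565, 1467 and 1751 in P3FI-90. The groups were apart, a log2 rise of 0.83 ± 0.09 (edgeR adjusted p = 7.84e-07). *Hif1an*, the asparaginyl hydroxylase that blocks coactivator binding to HIF, went from 1763, 1773 and 1716 to 2638, 2390 and 2415 normalized counts and rose by 0.50 ± 0.05 on the log2 scale. Both genes that rose in this group encode negative regulators of HIF. With total counts, 4 of the 6 tested genes of the group were called higher and 0 lower. That scaling called 6179 of all 12288 tested genes higher and 3641 lower.

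The other HIF targets were divided. Of 15 tested, 9 were called higher, beside 39.9% of all genes, 4 lower and 2 not called, with a median log2 fold change of 0.21 beside 0.01 for all genes. DMSO replicate 2 was the highest vehicle library for 11 of the 15 (73.3%) and for 32 of all 48 tested members (66.7%), against 33.7% of all genes tested, and without it 9 targets were again called higher and 4 lower. The median of the targets was 0.14 without DMSO replicate 3, 0.43 with total counts, which shift all genes by 0.21, and 0.64 without the members that share 20% or more of their windows. Replicate 2 was the highest vehicle library for *Adm*, *Ankrd37*, *Ndrg1* and *Bnip3*.

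Secreted factors were among the strongest rises. *Vegfa*, the angiogenic growth factor and the best-known HIF target, had 1392, 1262 and 1288 normalized counts in DMSO and 4323, 4119 and 4313 in P3FI-90. The rise was 3.23-fold without overlap (log2 1.69 ± 0.05, edgeR adjusted p = 1.40e-12). *Adm*, the vasodilator peptide adrenomedullin, went from 167, 247 and 145 to 517, 526 and 536 normalized counts. Its vehicle libraries were uneven, yet all lay far below the treated ones (log2 1.51 ± 0.16). *Mif*, a cytokine, rose by only 0.13 ± 0.04 on the log2 scale, and 34.1% of its windows occur in other genes.

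Among the 4 collagen-modifying enzymes, 3 rose and *Plod1* was lower under TMM. The prolyl 4-hydroxylase subunit *P4ha1*, which hydroxylates collagen chains, had 4584, 4720 and 4388 normalized counts in DMSO and 12225, 12730 and 12523 in P3FI-90. It rose 2.74-fold (log2 1.45 ± 0.04, edgeR adjusted p = 2.41e-13), and its relative *P4ha2* rose 2.09-fold (log2 1.07 ± 0.05). Among the lysyl hydroxylases, *Plod2* rose by 0.21 ± 0.05 on the log2 scale, whereas *Plod1* had a log2 fold change of −0.30 ± 0.07 that missed the threshold with total counts (−0.08).

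Genes of mitochondrial turnover and stress were mixed. *Higd1a*, a mitochondrial inner membrane protein, rose 2.19-fold (log2 1.13 ± 0.07), and *Ndrg1*, a widely used hypoxia marker, rose 1.89-fold from 11463 ± 1281 normalized counts. *Bnip3*, a receptor for mitophagy, rose by 0.64 ± 0.06 on the log2 scale. Its paralog *Bnip3l* had 8426, 9646 and 8438 normalized counts in DMSO and 8643, 8545 and 8959 in P3FI-90. These overlapped, and the log2 fold change of −0.02 ± 0.05 was not called and turned positive without DMSO replicate 2 (0.04).

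The targets that fell were led by *Ddit4*, which encodes REDD1, an inhibitor of mTORC1. Its normalized counts went from 3298, 3650 and 3560 to 1402, 1286 and 1370, a 2.59-fold fall (log2 −1.37 ± 0.06, edgeR adjusted p = 2.57e-11). *Ankrd37*, an ankyrin repeat protein often used as a HIF reporter, went from 317, 426 and 248 to 147, 103 and 157 normalized counts. It fell without overlap (log2 −1.28 ± 0.21), and 349 bases of its exons overlap those of *Lrp2bp*, which rose from 13.6 ± 4.64 to 41.4 ± 8.61 normalized counts. A further 57 exon bases overlap those of *Ufsp2*, which fell from 2429 ± 63.3 to 1823 ± 103 normalized counts.

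The membrane carbonic anhydrases, which regulate pH outside the cell, were unequal. *Car9*, among the most HIF-specific transcripts, had 726, 862 and 870 normalized counts in DMSO and 713, 767 and 795 in P3FI-90. These groups overlapped and the log2 fold change of −0.11 ± 0.08 was not called (edgeR adjusted p = 0.245). *Car12* went from 3208, 3194 and 3085 to 1769, 1671 and 1676 normalized counts, a clear fall of 0.89 ± 0.05 on the log2 scale.

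The 3 glycogen enzymes showed small changes. *Gys1*, the glycogen synthase, went from 2977, 3322 and 3182 to 2470, 2464 and 2491 normalized counts, a log2 fold change of −0.35 ± 0.05. It shares 310 exon bases with *Ruvbl2*, which fell by 0.88 ± 0.04. *Pgm1*, which links glucose 1-phosphate and glucose 6-phosphate, went from 3166, 3240 and 3043 to 3851, 4234 and 3725 and rose by 0.32 ± 0.05. *Gbe1*, the branching enzyme, had 945, 1068 and 884 normalized counts against 1070, 936 and 1080 and was not called (0.09 ± 0.08).

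Enzymes and other HIF targets were then set against each other. The median log2 fold change of the 17 enzymes lay 0.86 below that of the 15 other HIF targets. Within single libraries, the enzyme medians against the DMSO mean were −0.66, −0.67 and −0.61 in P3FI-90, and the target medians were 0.22, 0.21 and 0.22. The DMSO libraries stayed between −0.03 and 0.02 for enzymes and between −0.06 and 0.08 for targets. Relative to the median of all genes, the enzymes stood at −0.66 and the targets at 0.20 under TMM as well as under total counts. No p is given for this difference, because genes are not replicates. The members were chosen by name, with earlier results of these data known.

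**Figure D3:**
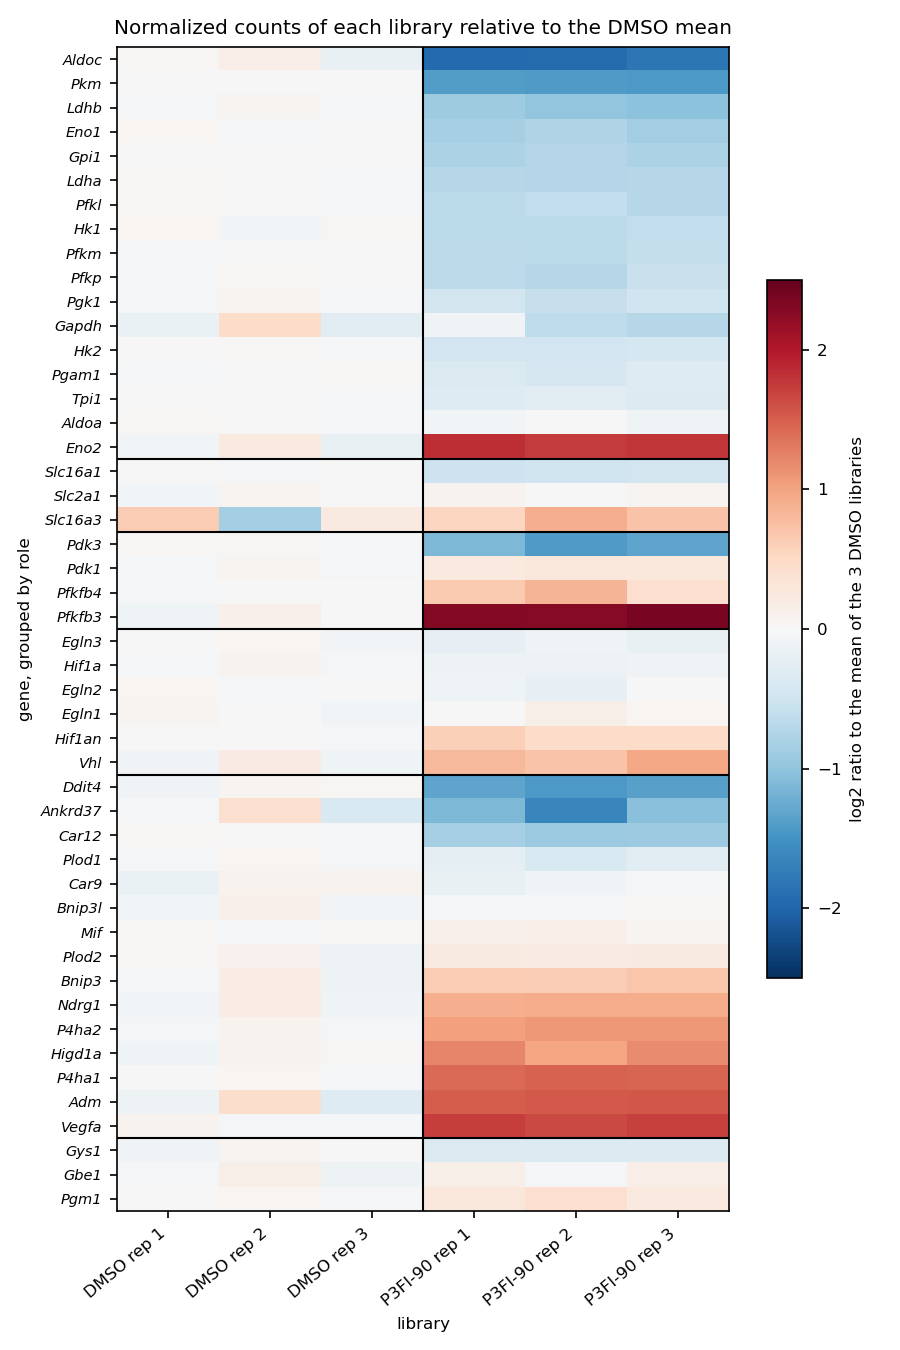
Log2 ratio of normalized counts in each library to the mean of the 3 DMSO libraries, for the 48 tested members (rows, grouped by role) in each of the 6 libraries (columns). The enzyme block at the top is blue in all 3 P3FI-90 columns except for *Aldoa*, *Eno2* and, in P3FI-90 replicate 1, *Gapdh* (−0.09). The block of other HIF targets is mostly red, and DMSO replicate 2 is slightly red in several rows.

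A ratio within a library does not depend on the scaling. The 15 other HIF targets together had 10.4, 11.3 and 10.4 counts per 100 counts on the 17 enzymes in the DMSO libraries and 24.7, 24.8 and 25.3 in the P3FI-90 libraries. The means were 10.7 ± 0.474 and 24.9 ± 0.333 (SD, n = 3), without overlap (exact two-sided permutation p = 0.1, the smallest possible). Such a sum is dominated by abundant genes, and *Mif*, *Ndrg1*, *Bnip3l* and *P4ha1* supplied most target counts. Without the members that share 20% or more of their windows with other genes, the median difference was −1.29, from 11 enzymes and 13 targets.

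The balance between related genes was also compared within libraries for 17 fixed pairs, of which 15 had counts in every library. In 13 of the 15 the groups did not overlap, beside 81.2% of single genes, each with an exact two-sided permutation p of 0.1, the smallest possible, and 0.115 after Benjamini-Hochberg adjustment, so no pair could pass 0.05. Values are log2 differences of the ratio, P3FI-90 minus DMSO, with their SE. The widest was *Eno2* to *Eno1*, 2.62 ± 0.15, a ratio 6.13-fold higher in treated cells. Negative differences were led by *Aldoc* to *Aldoa* with −1.85 ± 0.12, *Pfkfb4* to *Pfkfb3* with −1.67 ± 0.16 and *Pdk3* to *Pdk1* with −1.54 ± 0.10.

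Differences were smaller in the other families. *Car12* to *Car9* had −0.78 ± 0.12 and *Bnip3l* to *Bnip3* −0.66 ± 0.04. *P4ha2* to *P4ha1* had −0.39 ± 0.02 although both genes rose, and *Ldhb* to *Ldha* −0.24 ± 0.06 although both fell. *Hk2* to *Hk1* had 0.19 ± 0.05, so the inducible hexokinase was the less reduced of the pair in these libraries. *Plod2* to *Plod1* had 0.51 ± 0.07, and against *Egln1* the ratio of *Egln3* had −0.23 ± 0.03 and that of *Egln2* −0.17 ± 0.10. The groups of *Egln2* to *Egln1* only just separated, with log2 ratios of −2.735 in DMSO replicate 2 and −2.737 in P3FI-90 replicate 3. *Slc16a3* to *Slc16a1* had 1.26 ± 0.49 from the few counts given above. In contrast, *Pfkp* to *Pfkl* and *Pfkm* to *Pfkl* both differed by 0.02, with SE of 0.08 and 0.06 and overlapping libraries (exact two-sided permutation p = 1).

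**Figure D4:**
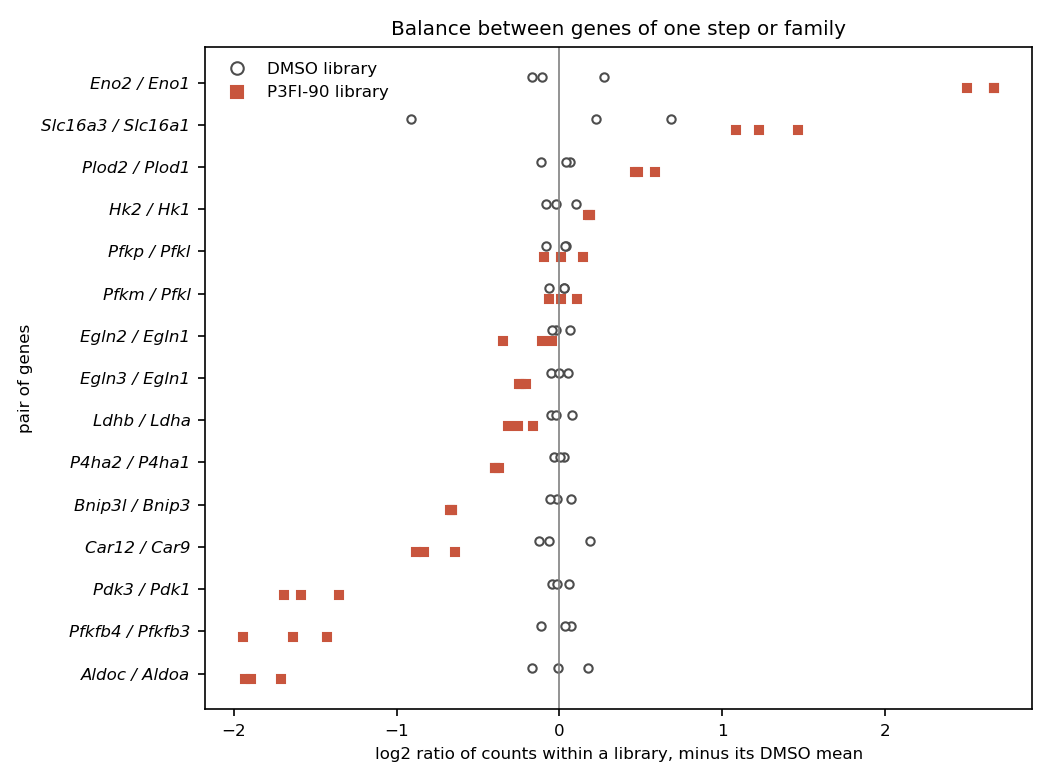
Log2 ratio of the counts of related genes within each library, minus the mean of the DMSO libraries (x axis), for 15 pairs (y axis). Open circles are the 3 DMSO libraries and red squares the 3 P3FI-90 libraries, and the groups overlap only for *Pfkp* / *Pfkl* and *Pfkm* / *Pfkl*, while *Eno2* / *Eno1* and *Aldoc* / *Aldoa* are farthest from 0.

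Further genes around the pathway were read from lists written from general knowledge, with earlier results of these data known. Counts from these lists are therefore a description and not an independent check of the members. Of 15 tested genes among 28 further glycolysis genes, 6 rose and 6 fell, about the 39.9% and 39.4% of all genes. *Pfkfb2*, another maker of fructose 2,6-bisphosphate, rose by 1.60 ± 0.09 on the log2 scale and *Adpgk*, an ADP-dependent glucokinase, by 0.57 ± 0.05. *Eno3*, the muscle enolase, fell from 8102 to 2889 normalized counts (log2 −1.49 ± 0.03), and *Pfkfb1* fell by 1.10 ± 0.17. *Pfkfb2* and *Pfkfb3* thus rose beside a fall of *Pfkfb1*.

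Genes of pyruvate entry into mitochondria were lower in 8 and higher in 3 of 15 tested, beside 39.4% and 39.9% of all genes. The share called, 73.3%, was below the 79.3% of all genes tested. With total counts, which shift all genes by 0.21, the split became 5 lower and 6 higher. *Pcx*, pyruvate carboxylase, rose by 1.49 ± 0.16 on the log2 scale and *Gpt2*, a mitochondrial alanine aminotransferase, by 0.28 ± 0.04. *Pdp1* and *Pdp2*, the phosphatases that reactivate pyruvate dehydrogenase, fell by 1.55 ± 0.14 and 0.95 ± 0.09. In the further glycogen list, 2 of 10 tested genes rose and 5 fell, beside 39.9% and 39.4% of all genes, with *Stbd1*, a glycogen-binding protein, at 1.03 ± 0.07, *Ugp2*, which makes UDP-glucose, at −0.87 ± 0.05 and *Pgm3* at −0.82 ± 0.09.

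The pentose phosphate pathway, which branches from glucose 6-phosphate, was also mostly lower. Of its 12 genes, 9 were called lower, beside 39.4% of all genes, and 2 higher, beside 39.9%, with a median of −0.69 beside 0.01. *G6pdx*, the rate-limiting dehydrogenase, went from 8237 to 2017 normalized counts (log2 −2.03 ± 0.04), and *Pgd*, the second NADPH-yielding step, fell by 1.28 ± 0.04. *Shpk*, sedoheptulokinase, rose from 44.3 to 326 normalized counts (log2 2.88 ± 0.19), and *Rpe* rose by 0.43 ± 0.04.

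Partners of HIF were evenly divided, with 5 of 14 tested genes higher and 6 lower (7 and 3 with total counts), near the shares of all genes. The coactivator acetyltransferases *Crebbp* and *Ep300* rose by 1.57 ± 0.08 and 0.99 ± 0.04 on the log2 scale. *Cited2*, which competes with HIF for these coactivators, fell by 0.69 ± 0.04, and *Lrrc41*, a ubiquitin ligase component, fell by 0.43 ± 0.05.

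A list of 52 further HIF targets was mostly higher. Of 43 tested, 26 were called higher, beside 39.9% of all genes, and 10 lower, beside 39.4%, with a median of 0.45 beside 0.01 for all genes. *Angptl4*, an inhibitor of lipoprotein lipase, rose from 19.1 to 283 normalized counts (log2 3.89 ± 0.28), and *Vldlr*, a lipoprotein receptor, from 39.4 to 200 (log2 2.36 ± 0.28). *Cp*, the ferroxidase ceruloplasmin, fell by 1.86 ± 0.07, and *Errfi1*, an inhibitor of EGFR signaling, fell by 1.11 ± 0.03. Several of these targets respond to other signals as well, so their counts do not single out HIF.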

How the data were processed

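Raw counts of reads per gene, deposited by the authors as whole numbers without normalization, were analysed for 3 DMSO and 3 P3FI-90 libraries. The submitters' processing notes name CASAVA, HISAT2, StringTie and GRCm39, whereas the counting tool, annotation and strandedness are not given in the sources used here. Reads of overlapping antisense genes therefore cannot be told apart. Of 22401 rows, 296 without a gene identifier (285 assembled transcripts among them), holding 0.483% to 0.556% of a library's counts, were left out. Low-count genes were removed by filterByExpr, libraries were scaled by TMM and tests were made with edgeR 4.0.16 in R 4.3.3 (quasi-likelihood, Benjamini-Hochberg over 12288 genes, common biological coefficient of variation 0.0648). Normalized counts refer to the average of the TMM-adjusted library sizes, and fold changes are edgeR's. The paper names limma (here 3.58.1), which was run as an alternative, as was DESeq2 1.42.0.

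The members and lists were chosen with earlier results of these data known. All members may be named. Values per library are given for the 3 largest rises and 3 largest falls called in each role, for members not called and for *Hif1a*, *Epas1*, *Slc2a1*, *Hk2*, *Ldha*, *Vegfa* and *Car9*, and *Gapdh* was added after its values were seen. Each wider list is represented by its 2 largest rises and 2 largest falls with at least 100 normalized counts in a group. Some items under these rules are not reported here. Equal replicate numbers showed no sign of pairs, as deviations from the group means correlated by −0.015, 0.017 and 0.010. Such correlations cannot exclude pairing, since each rests on noisy deviations from the mean of 3 libraries. Within a group, the chi-square per gene between libraries was 5.44 to 8.43, above counting noise. Exon lengths (all annotated exons of a gene, merged), shared 50-base windows and overlaps came from GENCODE M21 and promoters from RefSeq. In simulated counts on 11859 genes, the test recovered 76 of 100 genes changed by 0.5 and 87 of 100 changed by 1 on the log2 scale. Of its calls, 5.23% were false. Only these genes were changed, equally in both directions, whereas 79.3% of genes were called in the real data. Recovery under such widespread change was not tested.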

Additional observations from a re-analysis of the deposited data

How the results depend on the processing

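Over 48 tested members and 16 alternatives, 748 values kept direction and call, 6 lost and 6 gained a call, and 7 changed sign. With total counts the sign changed for *Aldoa* (0.16), *Hif1a* (0.091), *Egln2* (0.11), *Egln3* (0.047), *Car9* (0.10) and *Bnip3l* (0.19). Of these, *Aldoa*, *Hif1a* and *Bnip3l* were then called higher. Under the same scaling 2 enzymes were higher. The medians were −0.43 for enzymes and 0.43 for other HIF targets, following the shift of all genes by 0.21. With one library left out at a time *Bnip3l* ranged from −0.056 to 0.042 (without DMSO replicate 2). The upper quartile gave an enzyme median of −0.68. With one library left out at a time, the target median ranged from 0.14 (without DMSO replicate 3) to 0.26, and the difference between enzymes and targets from −0.90 to −0.78. That difference was −0.71 with transporters and flux regulators added to the enzymes and −0.77 with *Egln1* and *Egln3* added to the targets. Without the members sharing 20% or more of their windows, an alternative chosen after seeing the data, the target median was 0.64 and the difference −1.29. Keeping the rows of assembled transcripts, also added later, left 16 members higher and 24 lower. The replicate block gave 4802 higher and 4722 lower genes and also left 16 members higher and 24 lower, so it changed no count of members. Calls were gained with total counts for *Slc2a1*, *Egln1* and *Gbe1* (higher), with the upper quartile and without P3FI-90 replicate 2 for *Aldoa* (lower) and without DMSO replicate 1 for *Car9* (lower). The call for *Kdm3b* was lost in 4 alternatives. The cause of these changes was not tested beyond the scaling itself. Depth limits *Slc16a3*, with 3 to 15 counts per library and an SE of 0.58.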
